A study of Rattus norvegicus with 300 samples.

Results

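Described here are 100 rat genes whose RNA was lower under all 3 antidepressants than under both control treatments in 5 brain regions. The members were chosen by measured values: for each of 9664 genes with a mean of at least 5 CPM (a gene's count divided by its library's total, times 1000000) in those regions, log2(CPM+1) was averaged per treatment over the regions labelled CGC, mPOA, NACShell, PLC and Raphe, and the score was the lower of the 2 control means minus the highest of the 3 drug means. The 100 highest scores are the members, out of 9664 ranked genes and 17337 genes counted. Scores ran from 0.20 to 0.82, with a median of 0.26.

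The study treated 60-day-old male Long Evans rats for 3 weeks through the drinking water and counted total RNA from pooled punches of frozen brain. The series holds 300 libraries, from 10 regions, 6 treatments and 5 replicates of each. The 2 control groups were plain water (labelled Control) and maltodextrin at 10 g/L. The drug groups were FT (taken here as the protocol's fluoxetine, at 13 mg/kg/day, since the other groups carry the names of the remaining agents), Bupropion at 15 mg/kg/day and Desipramine at 7.5 mg/kg/day, and the sixth group received Probiotics. The 5 regions labelled BLA, dorDG, ILC, LConly and venDG were not part of the rule, and every test below was run on their libraries. The question was which genes the 3 drugs shift in the same direction. Fluoxetine blocks mainly the serotonin transporter, desipramine mainly the noradrenaline transporter, and bupropion the dopamine and noradrenaline transporters, so the drugs reach the brain's monoamine systems by different first targets.

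Several libraries stood apart from their labels or groups. In all 10 regions FT replicate 1 was the smallest of the FT libraries (3511756 to 4807308 counts), and over the 5 regions of the rule 73 of the 100 members were lowest in it among the 5 FT replicates, against 34.4% of all ranked genes. Without FT replicate 1, 89 of the 100 members were still among the highest 100 scores and all 100 scores stayed above 0. The FT libraries labelled ILC held 193 to 297 CPM of Dbh, the noradrenaline-making enzyme of the locus coeruleus, while those labelled LConly held 0.115 to 0.837 CPM, so the 2 labels go against their markers in that group. Control libraries labelled ILC held 20.8 to 27.5 CPM of Slc17a7, a glutamate transporter of cortical neurons, against 261 to 290.5 CPM under maltodextrin. Cd74, an antigen-presentation gene, reached 476 to 610.0 CPM in Control libraries of BLA, and Ttr, a choroid plexus gene, reached 6329 to 8655 CPM in FT libraries of BLA and 4694 to 6554 CPM in those of dorDG, against 25.6 to 38.7 CPM in Control libraries of dorDG. Total counts ranged from 198260 to 18310687 per library, and the 4 libraries below 1000000 counts were all Desipramine libraries, 2 of them in regions of the rule. The labels name no preparation batch, so a batch shared by one treatment and the treatment itself cannot be told apart.

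The members belong to many cell functions. Membrane traffic moves cargo between the endoplasmic reticulum, Golgi, endosomes and lysosomes, and fusion is driven by SNARE proteins such as syntaxins. Ubiquitin and its relative SUMO are attached to proteins by conjugating enzymes (E2) and ligases (E3), which mark targets for breakdown or change their function. Smooth muscle and pericytes of vessels, and the fibroblasts of the brain's coverings, carry their own marker genes that whole-tissue punches include. In bulk tissue, fewer cells of a type and less RNA per cell cannot be told apart.

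The member with the highest score is a microRNA locus, and a second one ranks 21st. Mir124-1 is one of the genes for miR-124, the most neuron-enriched microRNA, which silences non-neuronal transcripts. Mir770 is a microRNA gene of an imprinted cluster. RefSeq's GRCr8 annotation gives both mature products of Mir770, on chromosome 6 of the plus strand, at chr6:134298094-134298115 and chr6:134298129-134298145, and they are shown because the seed (bases 2 to 8, in capitals) sets which messenger RNAs a microRNA can pair with.
rno-miR-770-5p: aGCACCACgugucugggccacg
rno-miR-770-3p: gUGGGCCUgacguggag
The seeds of the 2 arms differ. The libraries were made from total RNA, so counts at these symbols can come from longer transcripts over the locus as well as from the hairpin.

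Promoter windows of RefSeq (GRCr8, 250 bases before to 50 after the annotated start) were found for 83 members and for 7891 of the ranked genes. The windows of 2 members are shown, without the bases after the start, because these genes carry results below: Stx7, with the sixth score, and Tmx2, with one of the deepest drops in the regions outside the rule. The Stx7 window lies on the minus strand of chromosome 1 (chr1:23056466-23056715) and the capitals mark matches to the core of the NRF1 site, GCATGCGC, on both strands. The Tmx2 window lies on the minus strand of chromosome 3 (chr3:90169279-90169528) and the capitals mark TATAAA.
Stx7: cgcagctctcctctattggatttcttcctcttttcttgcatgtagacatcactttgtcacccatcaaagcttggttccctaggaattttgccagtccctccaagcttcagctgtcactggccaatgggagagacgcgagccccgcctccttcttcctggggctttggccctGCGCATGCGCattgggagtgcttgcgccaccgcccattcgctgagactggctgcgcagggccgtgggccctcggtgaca
Tmx2: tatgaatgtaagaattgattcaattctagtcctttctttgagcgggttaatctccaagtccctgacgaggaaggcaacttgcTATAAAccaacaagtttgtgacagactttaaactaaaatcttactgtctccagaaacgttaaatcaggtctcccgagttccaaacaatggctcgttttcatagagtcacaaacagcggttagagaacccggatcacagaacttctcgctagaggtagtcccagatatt
The TATAAA match in Tmx2 starts 168 bases before the start. Each motif was searched on both strands over the whole 300 bases, in the first window listed for a gene. GCATGCGC was in the windows of 5 of 83 members (6.02%), against 5.39% of ranked genes, and the members were Stx7, Srsf7, Abhd5, Wars2 and Magi1. TATAAA was in 6 members (7.23% against 6.25%), the E-box CACGTG in 7 (8.43% against 9.58%), CCAAT in 27 (32.53% against 38.02%), GGGCGG in 50 (60.24% against 63.90%), the ETS letters CCGGAAG in 12 (14.46% against 18.62%) and TGACGTCA in 1 (1.2% against 3.52%). Median GC content was 59.0% in members and 61.7% in ranked genes. Members held each of the 7 motifs at a share close to that of all ranked genes or below it. The windows are those of GRCr8, not of the rn6 build that the submitters' processing notes name.

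In the regions of the rule the drug mean of a member lay below its control mean by a log2 difference of -0.45 at the median, from -1.29 to -0.24, while the median over all ranked genes was 0.08. These values chose the members and carry no test. As a ratio of geometric means of CPM+1, drugs over controls, the median was 0.732. Both control means lay above all 3 drug means in 6.79% of ranked genes, 656 in number, of which the members are the top 100. With log2(CPM+1) averaged over the 5 regions for each replicate, all 10 control replicates lay above all 15 drug replicates in 73 members and in 1.40% of ranked genes. The lowest drug was FT for 35 members, Bupropion for 37 and Desipramine for 28. Most members were modestly expressed: 31 had a mean under 10 CPM and 20 a mean over 100 CPM, and the whole list ran from 5.16 to 9538 CPM. Scaled by TMM, which evens out library composition, the median difference was -0.53 in members and 0.00 in ranked genes, all 100 scores stayed above 0, and 61 members remained in the top 100.

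The threshold cut through closely spaced scores. Apex1, a DNA repair endonuclease, and Dap3, a mitochondrial ribosomal protein, were the last inside with scores of 0.198 and 0.196. Cdh5, the endothelial cadherin, and Cyp4f6, a fatty acid hydroxylase of the P450 family, were the first outside with 0.196 and 0.194.

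Among the 6 highest scores, Mir124-1 had the widest gap on the log2 scale. Its mean CPM over the 5 regions was 21.1, 22.4, 26.2, 27.5 and 22.1 in the 5 Control replicates and 30.9, 28.6, 33.9, 35.2 and 31.8 under maltodextrin. It was 3.80, 15.8, 17.7, 23.6 and 14.5 under FT, 11.1, 14.05, 12.02, 11.3 and 11.98 under Bupropion and 4.12, 4.75, 7.82, 6.57 and 10.5 under Desipramine. Bupropion and Desipramine replicates lay below every control replicate, but FT replicate 4, at 23.6 CPM, lay above the lowest Control replicate, and FT replicate 1 was far below the other FT replicates. Probiotics replicates, at 20.7 to 25.05 CPM, overlapped the Control replicates.

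Rarres2, which encodes the secreted protein chemerin, was measured at 35.9, 36.7, 37.3, 38.2 and 36.04 CPM in Control and 41.4, 42.8, 37.6, 40.9 and 40.2 CPM under maltodextrin. Under FT the replicates gave 10.6, 25.2, 24.3, 24.9 and 28.1 CPM, under Bupropion 26.97, 24.03, 22.2, 23.7 and 24.1 CPM and under Desipramine 20.4, 17.8, 18.6, 20.96 and 22.8 CPM. Controls and drugs did not overlap, FT replicate 1 was the lowest of all, and Probiotics replicates lay between them at 26.3 to 30.6 CPM. Tagln, the smooth muscle protein transgelin, had 59.3, 64.03, 64.9, 68.1 and 65.1 CPM in Control and 68.6, 65.7, 61.1, 65.5 and 65.04 CPM under maltodextrin. It had 27.02, 27.8, 26.9, 28.2 and 26.5 CPM under FT, 32.4, 31.4, 30.1, 29.6 and 31.8 CPM under Bupropion and 28.00, 29.99, 29.8, 31.4 and 32.98 CPM under Desipramine. The drug replicates were close to each other, with no FT outlier, at under 56% of the lowest control replicate, and Probiotics again lay between at 40.4 to 44.2 CPM.

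Slc6a20, a proline and imino acid transporter of the brain's coverings and vessels, was low throughout. Its replicates gave 7.69, 9.26, 8.86, 9.66 and 8.94 CPM in Control and 11.9, 11.3, 12.1, 10.6 and 12.3 CPM under maltodextrin. They gave 4.17, 6.30, 5.89, 5.43 and 6.04 CPM under FT, 5.76, 4.88, 5.03, 4.51 and 4.76 CPM under Bupropion and 7.92, 5.22, 4.93, 5.68 and 5.91 CPM under Desipramine. Maltodextrin replicates were all above Control replicates, and Probiotics ran from 6.67 to 7.88 CPM, around the lowest Control replicate. Desipramine replicate 1, whose library counts in CGC and NACShell were under 1000000, lay just above Control replicate 1 in mean CPM, though not in mean log2(CPM+1), and all other drug replicates lay below all controls. Hspbap1, whose product binds the small heat shock protein Hsp27, had 6.91, 7.54, 7.52, 7.75 and 7.80 CPM in Control and 8.51, 6.91, 8.20, 8.38 and 7.69 CPM under maltodextrin. It had 3.02, 5.68, 5.98, 5.36 and 5.98 CPM under FT, 5.37, 4.89, 5.004, 4.39 and 5.21 CPM under Bupropion and 3.96, 3.31, 3.93, 3.56 and 4.11 CPM under Desipramine. Desipramine was lowest apart from FT replicate 1, no drug replicate reached a control replicate, and Probiotics ran from 5.18 to 7.41 CPM.

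Stx7 encodes syntaxin 7, a SNARE of late endosomes and lysosomes. It was measured at 78.4, 76.7, 81.1, 89.1 and 86.5 CPM in Control and 84.6, 78.5, 86.2, 85.5 and 95.1 CPM under maltodextrin. Under FT it was 40.5, 58.2, 65.04, 61.6 and 62.4 CPM, under Bupropion 58.4, 58.4, 61.4, 59.7 and 63.9 CPM and under Desipramine 51.2, 55.3, 59.2, 53.6 and 60.5 CPM. Probiotics replicates, at 76.7 to 84.6 CPM, lay within or next to the control range, well above every drug replicate.

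Ube2n is shown in the same way because it had the smallest p in the regions outside the rule. Ube2n, the E2 that builds lysine-63 ubiquitin chains, had 158.7, 153, 164, 163 and 160.0 CPM in Control and 153, 149, 153, 155 and 149 CPM under maltodextrin. It had 93.1, 105, 103, 101.5 and 104 CPM under FT, 124, 123, 121, 120.0 and 128 CPM under Bupropion and 113, 111, 120.1, 114 and 121 CPM under Desipramine. FT was lowest and Probiotics, at 115 to 134 CPM, sat with the drugs rather than the controls.

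**Figure D1:**
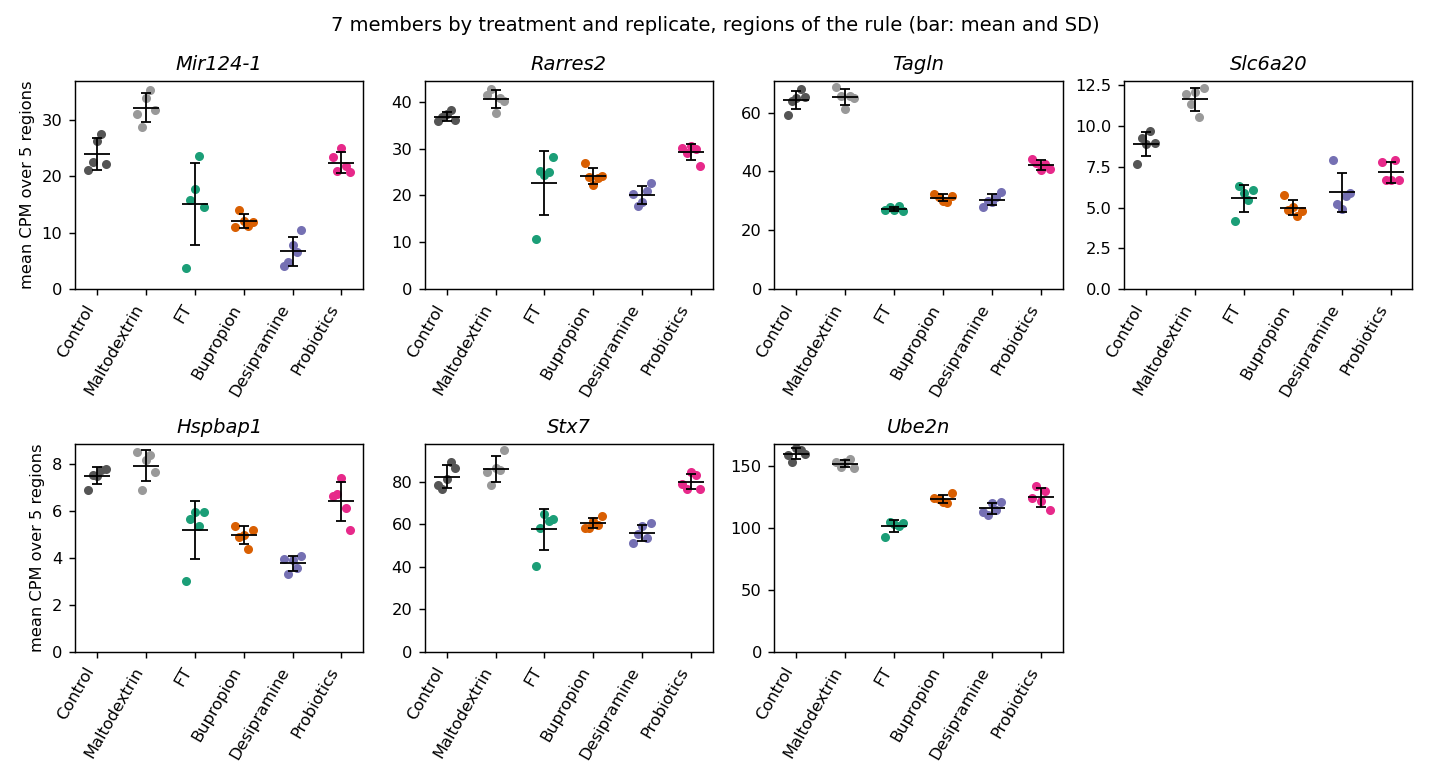
Mean CPM over the 5 regions of the rule (y axis, linear from 0) for 7 members, by treatment (x axis). Each point is 1 of 5 replicates and the black bars are the mean and SD. Drug points lie below control points in every panel except for FT replicate 4 of Mir124-1 and Desipramine replicate 1 of Slc6a20, and FT replicate 1 is low for Mir124-1, Rarres2, Hspbap1 and Stx7.

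The 5 regions outside the rule were not used to choose the members, but they are not independent of the regions that were, since both carry the same replicate labels within a treatment. Over the 30 treatment replicates, the correlation across genes of the deviation from the group mean between the 2 sets of regions ran from -0.093 to 0.912, with a median of 0.121. Counts were summed over these regions within each treatment replicate, and 14782 genes were tested with edgeR's quasi-likelihood test, a gene being called at a Benjamini-Hochberg adjusted p under 0.05. Against the mean of the 2 controls, the mean of the 3 drugs was called lower for 93 members and higher for 1, while 38.5% of all tested genes were called lower and 24.3% higher. The median log2 change was -0.40 in members and -0.06 over all tested genes. All 100 members passed the filter on low counts. Since the labels do not say that replicates came from separate animals, the p-values speak only of the spread among these libraries, part of which may be technical. FT replicate 1 was low here too: the median log2 difference of the members from the other FT replicates was -0.29 in the regions of the rule and -0.35 in these. Leaving that replicate out gave 94 members called lower. Leaving out ILC and LConly, whose FT labels are in doubt, gave 96, and leaving out BLA and venDG, whose Control libraries carried Cd74, gave 85. Counts under such alternatives, here and below, are given without the share of all tested genes called in the same setting.

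**Figure D2:**
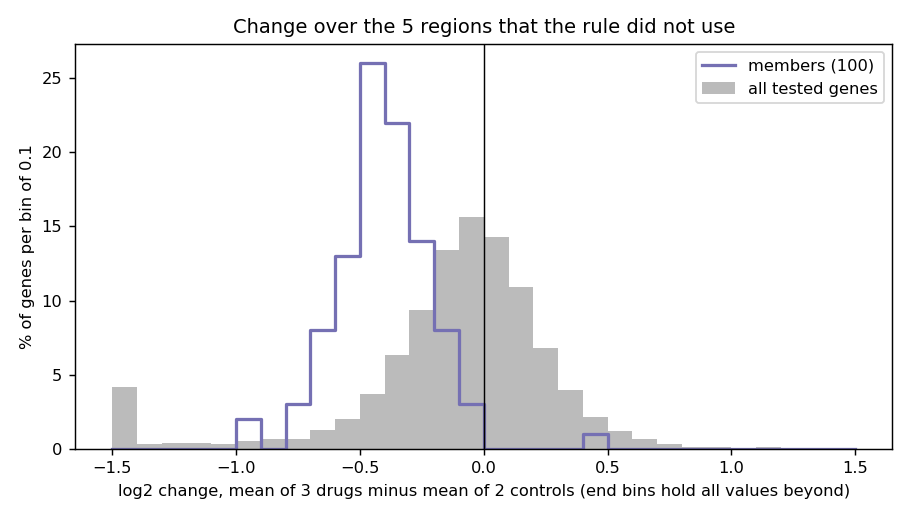
Log2 change of the mean of the 3 drugs against the mean of the 2 controls over the 5 regions outside the rule (x axis), as the percentage of genes in each bin (y axis). Grey bars are all 14782 tested genes and the line is the 100 members, whose median is -0.40 against -0.06.

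Each drug alone was then compared with the controls. FT was called lower for 90 members and higher for 1 (background 31.4% and 26.2%), with a median log2 change of -0.49. Desipramine was called lower for 94 and higher for 1 (background 38.1% and 23.1%), with a median of -0.42. Bupropion was called lower for 65 and higher for 2 (background 35.1% and 26.0%), with a median of -0.24. The Bupropion count was 46 against maltodextrin alone, 53 without BLA and venDG, and up to 72 under the other alternatives. The background of 35.1% belongs to the main setting and not to these. The 3 contrasts share their control samples. All 3 drugs were called lower for 60 members, against 9.80% of tested genes, 2 of the drugs for 31, 1 drug for 7 and none for 2, which were Acta2 and Myo1c. In the plain means of log2(CPM+1) over these 5 regions, all 3 drug means lay below both control means for 75 members and 6.26% of ranked genes. The replicates of controls and drugs did not overlap for 22 members and 0.642% of ranked genes.

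The drugs were also compared with each other directly. FT was called below Bupropion for 61 members and above it for 4 (background 27.3% and 26.6%). Bupropion was called above Desipramine for 57 members and below it for 9 (background 36.7% and 29.2%). FT was called below Desipramine for 36 members and above it for 18 (background 26.0% and 32.1%). With regions weighted equally in limma the first count fell to 36 and the second to 31. Rgs5, a signalling regulator of pericytes, changed by -1.04 (SE 0.04, adjusted p = 4.2e-19) under FT, its value under Bupropion was -0.05 (SE 0.04, adjusted p = 0.26), and the difference between them was -0.99 (SE 0.05, adjusted p = 1.3e-16). Mir124-1 changed by -1.65 (SE 0.21, adjusted p = 5.9e-08) under Desipramine, and Bupropion lay above Desipramine by 1.2 (SE 0.23, adjusted p = 3.1e-05).

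**Figure D3:**
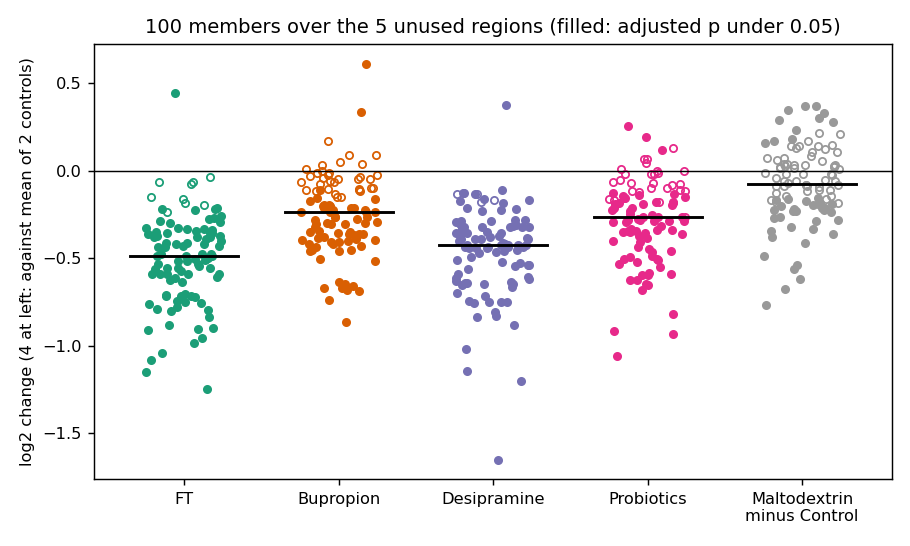
Log2 change over the 5 regions outside the rule (y axis) for each of the 100 members (points) by treatment against the mean of the 2 controls, and for maltodextrin against plain water (x axis). Filled points have an adjusted p under 0.05 and the black line is the median, which is -0.49 for FT, -0.24 for Bupropion, -0.42 for Desipramine, -0.26 for Probiotics and -0.08 for maltodextrin against water.

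Probiotics, which took no part in the score, were called lower than the controls for 69 members and higher for 3 (background 27.5% and 31.6%). The median log2 change was -0.26 against 0.01 over all genes. The count called lower ran from 56 to 81 over the alternatives. The control samples are those of the drug contrasts. The score chose genes that were high in both control groups in other regions, so this contrast is not independent of the rule. The 3 called higher were Acta2, Myo1c and Elovl1. In the regions of the rule the Probiotics mean lay at or above the lower control mean for 20 members, between the controls and the drugs for 59, and at or below the highest drug mean for 21. Set directly against the mean of the drugs, Probiotics were called higher for 50 members and lower for 13 (background 38.6% and 21.9%). The 50 became 29 without ILC and LConly and 26 in limma. The dorDG Probiotics libraries stood apart in a myelin gene, with 555 to 641 CPM of Mbp against 5963 to 6746 in Control, and its part in these counts was not tested. For Rnf4 and Stx7 the Probiotics changes did not pass, at 0.07 (SE 0.07, adjusted p = 0.45) and -0.07 (SE 0.07, adjusted p = 0.38). Vps11 and Pigk were called lower with Probiotics, at -0.91 (SE 0.05, adjusted p = 4.2e-15) and -0.59 (SE 0.04, adjusted p = 1.9e-14). The 2 controls were compared as well: maltodextrin was called below plain water for 32 members and above it for 11, close to the background of 28.1% and 18.0%. Without ILC and LConly these counts were 17 and 0.

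Region by region, the pattern of both control means above all 3 drug means was uneven. In the regions of the rule it held for 81 members in CGC, 90 in mPOA, 68 in NACShell, 64 in PLC and 85 in Raphe, against 10.3%, 9.85%, 6.57%, 3.32% and 6.24% of ranked genes. Outside the rule it held for 72 members in BLA (16.3% of ranked genes), 68 in dorDG (11.9%), 70 in venDG (6.91%), 31 in LConly (5.58%) and 21 in ILC (7.10%). Of the members, 31 showed it in all 5 regions of the rule, and over the other 5 regions 40 showed it in 3, 18 in 4 and 2 in all 5, while 4 showed it in none. The share of all ranked genes that showed it in as many regions was not computed.

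**Figure D4:**
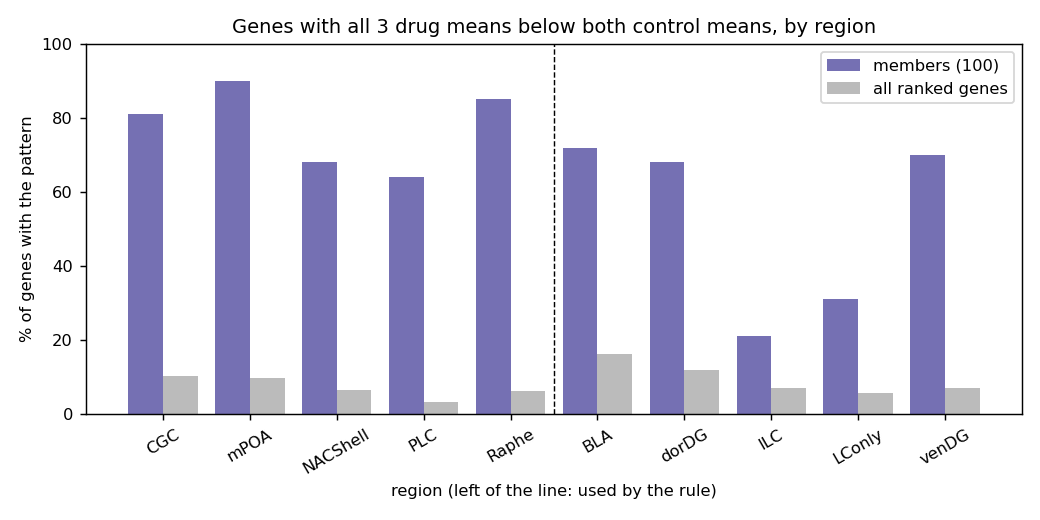
Percentage of genes (y axis) in which all 3 drug means lie below both control means, for the 100 members and all 9664 ranked genes, by region (x axis). Regions left of the dashed line chose the members. Outside the rule, members reach 68% to 72% in BLA, dorDG and venDG but 21% in ILC and 31% in LConly.

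Tested in each region alone, the mean of the drugs was called lower for 95 members in venDG (background 26.7%), 81 in BLA (29.6%), 72 in dorDG (11.1%), 72 in LConly (34.2%) and 54 in ILC (36.4%). It was called higher for 20 members in ILC and 6 in LConly, against 39.2% and 33.2% of tested genes. The 2 regions with doubtful FT labels were thus those with the fewest members in the pattern, and the part of the labels in this was not tested. At least 4 of the 5 regions called 62 members lower, and 26 were called lower in all 5. The share of all tested genes called lower in as many regions was not computed, so these counts have no background. Of the members called lower in venDG, Vps11 had the smallest p, with a log2 change of -1.02 (SE 0.05, adjusted p = 3.3e-18). In dorDG it was Idua, the lysosomal enzyme that breaks down heparan and dermatan sulphate, at -0.97 (SE 0.07, adjusted p = 8.7e-12), with 41.1 ± 1.50 CPM in Control, 35.3 ± 2.26 under maltodextrin, 15.1 ± 2.06 under FT, 22.5 ± 1.06 under Bupropion and 20.2 ± 2.48 under Desipramine (SD, n = 5 each). The FT libraries of dorDG are those that carried Ttr, and Idua was also below both controls under the other 2 drugs. Idua changed in the opposite direction in ILC, at 0.67 (SE 0.07, adjusted p = 1e-10). In BLA the smallest p among the members called lower belonged to Kctd21, a member of a family of adaptors for cullin-3 ubiquitin ligases, at -0.94 (SE 0.07, adjusted p = 2.7e-12), and in LConly to Elovl1, which elongates very long fatty acids, at -0.99 (SE 0.04, adjusted p = 1.3e-20). Elovl1 was higher in BLA, at 0.46 (SE 0.06, adjusted p = 2.1e-07), and in ILC, at 0.20 (SE 0.05, adjusted p = 0.00055). Its lower call over the 5 regions turned without ILC and LConly, to 0.12 (adjusted p = 0.024), and did not hold against maltodextrin alone (-0.08, adjusted p = 0.16) or in limma (-0.10, adjusted p = 0.050). In ILC the smallest p belonged to Calm2, 1 of 3 genes for calmodulin, at -1.34 (SE 0.04, adjusted p = 1.1e-25).

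**Figure D5:**
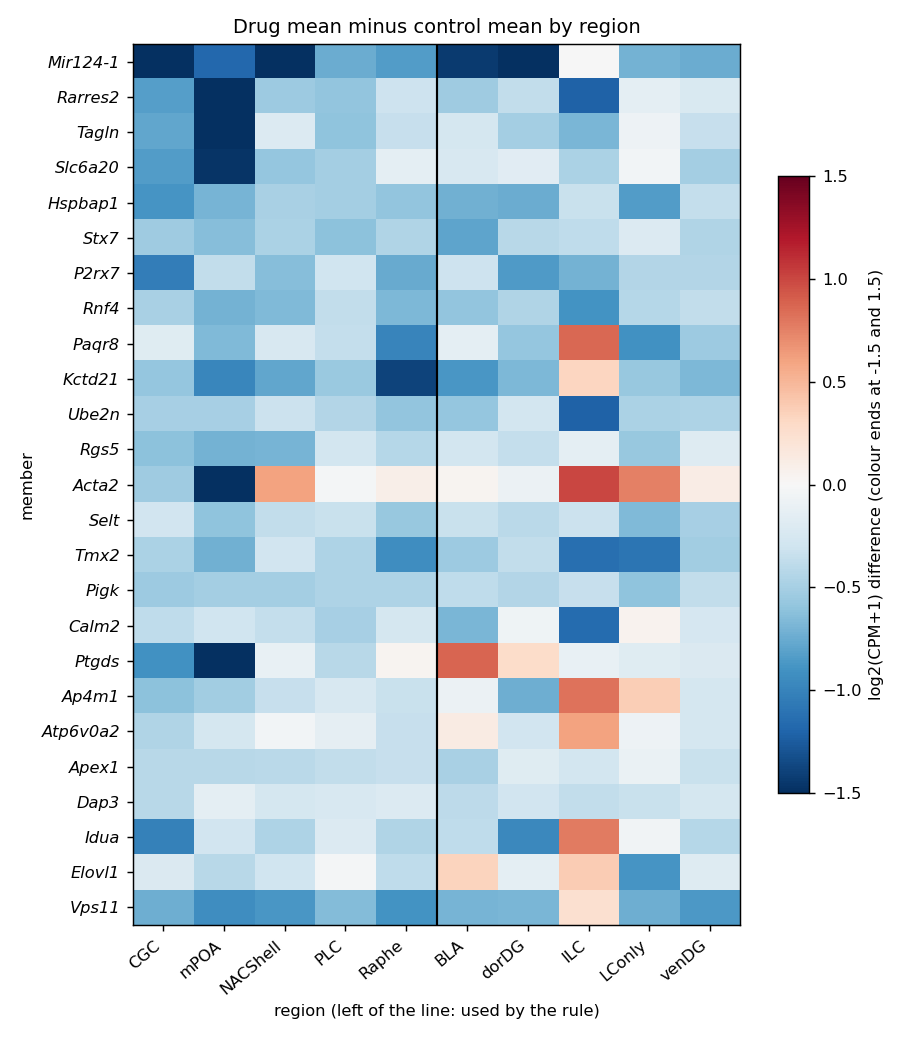
Difference in log2(CPM+1) between the mean of the 3 drugs and the mean of the 2 controls (colour) for 25 members (rows) in 10 regions (columns). Blue is lower under the drugs. Most cells are blue, the deepest for Tagln, Rarres2, Ptgds and Acta2 are in mPOA, and red cells are most frequent in ILC.

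The role groups that follow were formed after the list was known, and the examples in them outside the naming rule were chosen after their values were seen, so each count stands beside the 38.5% of tested genes called lower and carries no test of its own. Membrane traffic held 11 members. In the regions outside the rule 9 of the 11 were called lower for the drug mean and none higher, with a median log2 change of -0.41. Stx7 changed by -0.50 (SE 0.05, adjusted p = 6.3e-10). Vps11, a core subunit of the HOPS and CORVET tethering complexes of endosomes, changed by -0.67 (SE 0.04, adjusted p = 2.1e-15), with 80.6 ± 5.66 and 81.02 ± 5.56 CPM in the controls of venDG and 36.97 ± 4.13, 46.2 ± 4.49 and 50.6 ± 4.82 under FT, Bupropion and Desipramine. Arl6ip5, which binds the glutamate transporter EAAC1, changed by -0.72 (SE 0.05, adjusted p = 1e-12), and Napb, the brain beta-SNAP that recycles SNAREs, by -0.58 (SE 0.03, adjusted p = 4.9e-15). Outside the rule the mean of Arl6ip5 was 309 CPM in Control and 237 under maltodextrin, against 146, 204 and 198 under FT, Bupropion and Desipramine. Its difference on the log2(CPM+1) scale was -1.32 in ILC, against -0.54 in BLA, -0.24 in dorDG, -0.42 in LConly and -0.44 in venDG. Napb differed between drugs, with -1.15 under FT and -0.16 under Bupropion, a difference of -0.99 (SE 0.06, adjusted p = 4.5e-15). Ap4m1, of the AP-4 adaptor, and Atp6v0a2, of the proton pump, did not pass, at -0.09 (SE 0.06, adjusted p = 0.19) and -0.09 (SE 0.06, adjusted p = 0.18), and both were higher in ILC. Without ILC and LConly both were called lower, Ap4m1 at -0.44 (adjusted p = 3.7e-06) and Atp6v0a2 at -0.22 (adjusted p = 0.0021). Of the wider list of vesicle traffic and small GTPase genes, 37 others were tested, of which 23 were called lower, 6 higher and 8 neither, with a median of -0.15. The list of synaptic vesicle and release genes, which holds Napb, leaned higher: of 22 others 7 were called lower, 13 higher and 2 neither, with a median of 0.13.

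The ubiquitin and SUMO members were 5, all called lower. Ube2n changed by -0.75 (SE 0.04, adjusted p = 2.3e-17) and was called lower under each of FT, Bupropion and Desipramine. Its controls lay apart outside the rule, at a mean of 217 CPM in Control and 161 under maltodextrin. The means were 108 under FT, 135 under Bupropion and 123 under Desipramine. Over the alternatives its change ran from -1.06 to -0.44. Rnf4, the ligase that attaches ubiquitin to proteins carrying SUMO chains, changed by -0.63 (SE 0.06, adjusted p = 3.8e-11). Park2, which encodes the ligase parkin, changed by -0.53 (SE 0.05, adjusted p = 5.3e-11) and Dcaf8, a substrate receptor of cullin-4 ligases, by -0.11 (SE 0.02, adjusted p = 0.00012). Kctd21, counted apart from these 5, changed by -0.67 (SE 0.06, adjusted p = 1.6e-11). In the list of ubiquitin conjugation genes 27 others were tested, and 12 were called lower, 6 higher and 9 neither, with a median of -0.07, near the background. The proteasome list, which holds no member, leaned lower. Of its 29 genes 25 were called lower, 1 higher and 3 neither, with a median of -0.18.

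Members of the endoplasmic reticulum numbered 7 and all were called lower, with a median of -0.51. Tmx2, a membrane-bound thioredoxin-like protein, changed by -0.94 (SE 0.05, adjusted p = 2.3e-16), from -1.25 under FT to -0.69 under Bupropion. On the log2(CPM+1) scale its differences were deepest in ILC (-1.13) and LConly (-1.09), whose FT labels are in doubt. They were -0.55 in BLA, -0.37 in dorDG and -0.52 in venDG. Over the alternatives the change of Tmx2 ran from -1.32 to -0.53. Maltodextrin against plain water also changed it, by -0.77 (SE 0.08, adjusted p = 1.6e-09). Pigk, the catalytic subunit of the enzyme that attaches GPI anchors, changed by -0.51 (SE 0.03, adjusted p = 2.8e-16), and Selt, a selenoprotein of this compartment, by -0.52 (SE 0.03, adjusted p = 1e-16). Dpm3, which stabilises the synthase of dolichol-phosphate mannose, changed by -0.64 (SE 0.09, adjusted p = 2.9e-07). Pigk was called lower in each of the 5 regions, with -0.36 in BLA, -0.41 in dorDG, -0.53 in ILC, -0.72 in LConly and -0.52 in venDG.

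Lipid enzymes (6 members) and mitochondrial proteins (5 members) were all called lower, with medians of -0.41 and -0.41. The smallest drop among the lipid members was that of Elovl1, at -0.20. As given above, its change turned to 0.12 without ILC and LConly. The wider lists, which hold no member, leaned lower too. Of 34 nuclear genes of oxidative phosphorylation 27 were called lower, 1 higher and 6 neither, with a median of -0.26. Mitochondrial import, assembly and ribosome genes (26) gave 19 lower, 1 higher and 6 neither, and sterol synthesis genes (22) gave 17 lower, 1 higher and 4 neither. Acadsb, which acts on short branched-chain acyl-CoA, changed by -0.57 (SE 0.04, adjusted p = 1.8e-13). Abhd5, the activator of adipose triglyceride lipase, changed by -0.57 (SE 0.06, adjusted p = 7.4e-10). Nars2, a mitochondrial tRNA ligase, changed by -0.54 (SE 0.06, adjusted p = 6.3e-09), Dap3 by -0.43 (SE 0.03, adjusted p = 4.9e-15) and Slc25a26, the mitochondrial carrier of S-adenosylmethionine, by -0.35 (SE 0.04, adjusted p = 1.9e-08). Slc25a5, an ADP/ATP carrier, changed by -0.40 (SE 0.05, adjusted p = 5e-09); it has near-identical copies elsewhere in the genome, as do Calm2, Tuba1b and Nhp2l1, so the values of these 4 members are uncertain.

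Of 10 members that act in the nucleus or on RNA, all 10 were called lower, with a median of -0.33. The wider lists did not lean lower: 31 other genes of splicing and RNA binding gave 7 lower, 11 higher and 13 neither, with a median of 0.01, and 18 of histones and chromatin gave 4 lower, 10 higher and 4 neither, with a median of 0.12. Srsf7, a splicing factor, changed by -0.55 (SE 0.06, adjusted p = 1.1e-09) and most under Desipramine, at -1.02. Emg1, a methyltransferase of ribosomal RNA, changed by -0.47 (SE 0.03, adjusted p = 2.8e-13), and its Probiotics change was -1.06 (SE 0.05, adjusted p = 8.2e-18). Nrf1, the activator of nuclear genes for mitochondria whose site letters were searched above, changed by -0.33 (SE 0.06, adjusted p = 2.1e-05). Its mean level in the regions of the rule was 5.16 CPM, just above the limit of 5. Kinases and second-messenger genes were 10 members, 9 of them called lower: Calm2 changed by -0.59 (SE 0.03, adjusted p = 6.4e-16), Gnb5, the G protein subunit that partners with RGS proteins, by -0.47 (SE 0.05, adjusted p = 3.7e-10), and Snrk, a sucrose non-fermenting related kinase, missed the threshold at -0.12 (SE 0.06, adjusted p = 0.064). Outside the rule the mean of Calm2 was 14913 CPM in Control and 12260 under maltodextrin, against 8282, 10516 and 10944 under FT, Bupropion and Desipramine. That of Gnb5 was 62.8 CPM in Control and 50.3 under maltodextrin, against 32.0, 52.5 and 43.2 under FT, Bupropion and Desipramine. For Gnb5 the Bupropion mean thus lay above that of maltodextrin.

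The 3 noncoding members were all called lower outside the rule, and the third, Kantr, a long noncoding RNA, changed by -0.34 (SE 0.04, adjusted p = 2.9e-08). Mir124-1 changed by -0.95 (SE 0.14, adjusted p = 6.4e-07), with 61.9 ± 8.48 and 61.2 ± 2.63 CPM in the controls of BLA against 21.8 ± 13.3, 39.5 ± 4.08 and 18.3 ± 12.6 under FT, Bupropion and Desipramine (SD, n = 5). In dorDG the Mir124-1 Probiotics libraries were lower still, at 4.53 ± 2.999 CPM against 75.7 ± 5.96 in Control, and in ILC the change was -0.01 (SE 0.19, adjusted p = 0.97). A second locus for the same microRNA, Mir124-2, did not follow the rule in the rule's own regions: over these 5 it had 2.84 ± 0.37 CPM in Control, 4.44 ± 0.15 under maltodextrin, 2.52 ± 0.42 under FT, 1.54 ± 0.15 under Bupropion and 4.12 ± 0.37 under Desipramine (SD, n = 5), so that Desipramine lay above Control. Outside the rule Mir124-2 was called lower for the drug mean, at -0.23 (SE 0.08, adjusted p = 0.014). Mir770 changed by -0.66 (SE 0.09, adjusted p = 1.3e-07), from -0.20 under FT to -1.14 under Desipramine. In CGC it had 26.5 ± 2.35 and 34.6 ± 5.65 CPM in the controls and 7.92 ± 1.86, 7.06 ± 1.44 and 9.01 ± 3.04 under the drugs. In ILC it stood at 0.794 ± 0.277 CPM in Control and 33.1 ± 6.25 CPM under FT, the opposite order, in libraries whose labels or markers stand apart.

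The vessel and border members were 6, of which 4 were called lower and 1 higher outside the rule, and they were uneven across regions. Tagln changed by -0.46 (SE 0.03, adjusted p = 2.8e-14) outside the rule, Rgs5 by -0.40 (SE 0.03, adjusted p = 3.5e-13), Rarres2 by -0.58 (SE 0.07, adjusted p = 1.2e-08) and Serpinf1, the secreted protein PEDF, by -0.44 (SE 0.05, adjusted p = 3e-09). The regional differences of Serpinf1 on the log2(CPM+1) scale went both ways there. They were -0.67 in ILC and -0.35 in dorDG, but 0.23 in BLA, 0.14 in LConly and 0.01 in venDG. In none of these regions did both control means of Serpinf1 lie above all 3 drug means. In mPOA, Tagln had 206 ± 15.7 CPM in Control, 192 ± 14.97 under maltodextrin, 60.05 ± 4.39 under FT, 68.2 ± 5.76 under Bupropion and 51.04 ± 4.06 under Desipramine, whereas in NACShell the 5 means were 16.1 ± 1.08, 29.1 ± 2.70, 17.8 ± 2.67, 20.1 ± 2.66 and 18.7 ± 3.89. The deepest of its 10 regional differences was that in mPOA (-1.73 on the log2(CPM+1) scale) and the smallest that in LConly (-0.07). Rarres2 and Slc6a20 had differences of -1.49 and -1.47 in mPOA. Acta2, smooth muscle actin, had 46.5 ± 2.85 CPM in Control and 34.9 ± 2.53 under maltodextrin in mPOA, against 9.26 ± 2.92, 16.03 ± 2.10 and 11.2 ± 1.31 under the drugs. In NACShell it was higher under the drugs by 0.60 on the log2(CPM+1) scale, and over the regions outside the rule it was the 1 member called higher, at 0.48 (SE 0.06, adjusted p = 7.8e-08), which was 0.11 (adjusted p = 0.20) without ILC and LConly. Ptgds, the prostaglandin D synthase of the leptomeninges, was also uneven: in mPOA it had 3095 ± 274 and 3622 ± 168 CPM in the controls and 889 ± 40.7, 1444 ± 56.95 and 1030.5 ± 109 under the drugs. In BLA it had 249 ± 11.3 and 247 ± 4.16 CPM in the controls and 916 ± 48.5 under FT, and over all 5 regions outside the rule it did not pass, at -0.04 (SE 0.03, adjusted p = 0.3). Its direction there turned with the setting: it was called lower against Control alone (-0.21, adjusted p = 4.8e-05) and without BLA and venDG (-0.22, adjusted p = 8.8e-06), and higher without ILC and LConly (0.29, adjusted p = 5.6e-10), against maltodextrin alone (0.13, adjusted p = 0.014) and in limma (0.13, adjusted p = 6.9e-06).

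In mPOA, summed markers of meninges and of vessels were lower under the drugs as well, and those of choroid plexus were not. The summed level of 14 markers of meninges and fibroblasts that are no members was 543.6 to 633 CPM in Control and 770.1 to 829 CPM under maltodextrin, against 357 to 444 CPM under FT, 332 to 377 CPM under Bupropion and 367 to 390.0 CPM under Desipramine, with no overlap. That of 16 endothelial and mural markers was 540.1 to 636 CPM over both controls and 408 to 530.5 CPM over the 3 drugs, also without overlap. The other 17 genes of the choroid plexus and ependyma list, which holds Rarres2, summed to 321 to 414 CPM in mPOA over both controls, 326 to 431 CPM under FT, 431 to 488 CPM under Bupropion and 449 to 491 CPM under Desipramine. Over all 5 regions of the rule the 16 endothelial and mural markers overlapped, at 475 to 499 CPM in Control, 525 to 543 CPM under maltodextrin, 451 to 500.5 CPM under FT, 447 to 471 CPM under Bupropion and 507 to 521 CPM under Desipramine. The 14 meningeal markers overlapped too, at 265 to 354 CPM in controls and 237 to 300.1 CPM under the drugs. Summed myelin and oligodendrocyte genes (17) in mPOA were 41507 to 63170 CPM over both controls, 22360 to 33518 under FT and 27473 to 33770 under Desipramine, but 49836 to 61997 under Bupropion. The part that these cells have in the members' values was not tested. Outside the rule, 16 endothelial and mural genes that are no members gave 10 lower, 1 higher and 5 neither, with Pecam1, an endothelial adhesion molecule, at -0.28 (SE 0.03, adjusted p = 7.4e-09) and Cldn5, the tight junction claudin of brain endothelium, at -0.04 (SE 0.03, adjusted p = 0.25). Of 14 meningeal genes 4 were lower, 3 higher and 7 neither.

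Phagocyte genes were 3 members, all called lower. P2rx7, an ATP-gated channel, changed by -0.66 (SE 0.08, adjusted p = 1.4e-08), Cx3cr1, the fractalkine receptor of microglia, by -0.49 (SE 0.04, adjusted p = 8e-12), and Mertk, a receptor for engulfing dying cells, by -0.32 (SE 0.05, adjusted p = 2.3e-06). Cx3cr1 was called lower under each drug, with -0.80 under FT, -0.24 under Bupropion and -0.43 under Desipramine. The summed level of the other 17 microglial markers did not move with it under Bupropion in the regions of the rule: it was 1220 to 1307 CPM over both controls, 1323 to 1350 CPM under Bupropion, 1067 to 1143 CPM under FT and 1082 to 1125 CPM under Desipramine. Outside the rule 13 of these 17 were called lower and 2 higher, with a median of -0.28, but the 2 controls lay far apart there. The 17 markers summed to 1653 to 1695 CPM in Control and 1113 to 1148 CPM under maltodextrin, against 1024 to 1090.5 CPM under FT, 1171 to 1187 CPM under Bupropion and 1034 to 1148 CPM under Desipramine, so that every Bupropion replicate lay above every maltodextrin replicate.

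Among the members placed in no role group, Hspbap1 changed by -0.73 (SE 0.07, adjusted p = 2.8e-10), Paqr8, a membrane progesterone receptor, by -0.48 (SE 0.04, adjusted p = 9.2e-11) and Slc6a20 by -0.40 (SE 0.04, adjusted p = 2.5e-09). Paqr8 was higher in ILC, at 1.19 (SE 0.15, adjusted p = 1.3e-08), and lower in LConly, at -1.15 (SE 0.07, adjusted p = 3.7e-15), regions in which the FT labels go against their markers. Apex1, the next to last member, changed by -0.34 (SE 0.03, adjusted p = 4.8e-12), with -0.61 under FT and -0.03 under Bupropion. The members that did not pass for the drug mean outside the rule were Ap4m1, Ptgds, Atp6v0a2, Myo1c, Ramp3 and Snrk, at log2 changes between -0.13 and -0.04.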

How the data were processed

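Total RNA was sequenced from pooled punches of 250 µm brain sections with a stranded kit, per the labels. The authors deposited raw read counts per gene symbol. The submitters' processing notes name STAR, HTSeq, FastQC and rn6, and their versions and the strand setting of counting were not given in the sources used here. Members, role groups and gene lists were chosen with earlier results of these data known.

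CPM were computed from total counts. Outside the rule's regions, counts were summed per treatment replicate and fitted with edgeR 4.0.16 in R 4.3.3 (TMM, filterByExpr, quasi-likelihood test, all 30 sums in 1 fit), with Benjamini-Hochberg adjustment over 14782 genes. Single regions were fitted alike over 30 libraries. Alternatives used limma 3.58.1 and DESeq2 1.42.0, and the code was tested on simulated data. Genes named were the 10 highest scores, list members, the extremes of the tests outside the rule, the last 2 members and the lowest p among lower calls per region, and 2 members are not reported here. Replicate numbers were not used to pair samples in the main fits, and treatments not labelled with a batch could not be blocked.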

Additional observations from a re-analysis of the deposited data

Results flagged for a closer look

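In 3 of 42 groups of 5 replicates checked over the 7 members shown by replicate, a single value lay far from the rest, where chance gives about 1 group in 20, and all 3 were FT replicate 1. Its mean CPM over the 5 regions of the rule was 10.6 for Rarres2, 3.02 for Hspbap1 and 40.5 for Stx7, each the lowest of the FT group.

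Ptgds moved in opposite directions in 2 regions. Its difference between drugs and controls in log2(CPM+1) was 0.88 in BLA and -1.61 in mPOA, and the difference between the regions was not tested.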

How the results depend on the processing

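The counts in this section are given without the share of all tested genes called in the same setting. Their steadiness or movement is therefore not a result about the members. The count of members called lower for the drug mean ran from 85 to 96 over the alternatives and from 93 to 96 leaving out 1 replicate at a time. The same leave-one-out ranges were 90 to 92 for FT, 60 to 70 for Bupropion, 90 to 95 for Desipramine, 65 to 71 for Probiotics, 25 to 31 for maltodextrin below water and 8 to 10 for maltodextrin above it. They were 55 to 63 for FT below Bupropion, 32 to 37 for FT below Desipramine, 53 to 59 for Bupropion above Desipramine and 42 to 53 for Probiotics above the drugs. By region they were 77 to 82 in BLA, 63 to 73 in dorDG, 51 to 55 in ILC, 71 to 80 in LConly and 92 to 96 in venDG. Leaving out 1 replicate number at a time, membership kept 84 to 93 genes. Over the alternatives the ranges were 79 to 91 for FT, 74 to 98 for Desipramine and 56 to 81 for Probiotics. For the drug mean by region they were 69 to 81 in BLA, 68 to 89 in dorDG, 44 to 57 in ILC, 63 to 75 in LConly and 82 to 95 in venDG. These counts moved by over 1.5 times, and the cause was not tested: maltodextrin below water 17 without ILC and LConly and 13 in limma, maltodextrin above water 0 without ILC and LConly and 21 without BLA and venDG, FT below Bupropion 36, Bupropion above Desipramine 31 and Probiotics above the drugs 26 in limma, the last also 29 without ILC and LConly. On the TMM scale 61 members were kept and the median score was 0.296. Ptgds reversed to 0.29 without ILC and LConly, 0.13 against maltodextrin alone and 0.13 in limma, and Elovl1 to 0.12 without ILC and LConly, while Ptgds was called lower against Control alone (-0.21) and without BLA and venDG (-0.22). Bupropion ran from 46 to 72 over the alternatives. With a replicate block 93 members were called lower. Same-numbered replicates of different treatments deviated together little, with a median r of 0.014 over 75 pairs and a highest of 0.167. In 26 of the 75 pairs the same-numbered replicate was nonetheless the best match, so these values do not settle whether the numbers pair samples. Of 25 named members under 36 alternatives each, 889 values kept direction and call. Leaving out BLA and venDG, leaving out libraries under 1000000 counts, leaving out FT replicate 1 from the score and the alternatives of the comparisons between treatments were chosen after seeing the data. Of the members 31 had a mean under 10 CPM, and the effect of depth by level was not compared.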
